A study of Saccharomyces cerevisiae with 6 samples.

Results

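The protein part of the cytosolic ribosome was followed gene by gene in budding yeast with and without GCN4. The members were the S. cerevisiae genes whose symbol is RPL or RPS with a number and an optional A or B, together with the 5 stalk genes RPP0, RPP1A, RPP1B, RPP2A and RPP2B. Genes were chosen by name, with earlier results of these data known. Within the rule, measured values served only to take the brightest probe set of the 20 members that had several. Of 137 genes that the rule finds in the RefSeq gene table, 127 were named by a probe set, among 5449 yeast genes tested in all. Of these, 25 were read by probe sets whose suffix marks a possible match to more than 1 gene, so their signal may include a copy. The members measured were 52 genes of the 40S subunit, 70 of the 60S subunit and the 5 stalk genes. The other 10 genes were not analysed here.

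Each group had 3 Affymetrix arrays. The reference group was the wild-type strain FY4 and the other group a strain with GCN4 deleted. Both had grown exponentially in batch, in minimal medium with glucose as the carbon source. The labels do not give the strain from which the deletion was made, nor whether replicates came from separate cultures. The p-values therefore measure no more than the spread among these 6 arrays, which may be technical. Gcn4 is the transcription activator that switches on amino acid synthesis genes in yeast, and the study asked how its loss changes expression against FY4. GCN4 (YEL009C) had intensities of 23339, 18826 and 20142 in wild-type. In the deletion strain it had 18.5, 22.3 and 18.1, below the level of probe sets for another yeast species, which is at least 283-fold lower (limma adjusted p = 2.94e-07).

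As background, a ribosome is made of a small and a large subunit, each built from ribosomal RNA and a set of proteins needed in equal amounts. In budding yeast most ribosomal protein genes were kept as A and B copies after an ancient duplication of the genome, and the copies code for identical or nearly identical proteins. Their promoters are bound by Rap1, Fhl1, Ifh1 and Sfp1, and their transcription rises and falls with growth through TOR and protein kinase A. A few of these genes are also held in check by their own protein, which blocks splicing of the messenger or shortens its life.

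The arrays numbered 3 stood apart for short genes in both strains, so the values are given first. Replicate 3 was set against the mean of replicates 1 and 2 of its own group. Over the 17 members of up to 400 bp from start to stop codon in the R64 annotation, introns included, the median difference was -0.37 log2 units in wild-type and -0.24 in the deletion strain. It was below 0 in 15 and 16 of them. Over the 14 members longer than 1000 bp it was 0.03 in both strains. The 430 genes of up to 400 bp in the whole table had medians of -0.36 and -0.39, and the 3362 genes over 1000 bp had 0.04 and 0.07. Short members and short genes in general had like medians in wild-type, and in the deletion strain the short members were nearer to 0. Examples chosen after the values were seen are RPS28A, with -1.32 and -0.80, and RPL29, with -0.84 and -0.51. RPS28B is as long as RPS28A, 204 bp, and had 0.09 and 0.02. Across the 127 members the difference of replicate 3 in wild-type and that in the deletion strain had a Spearman correlation of 0.89, a description of genes that share these libraries.

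**Figure D1:**
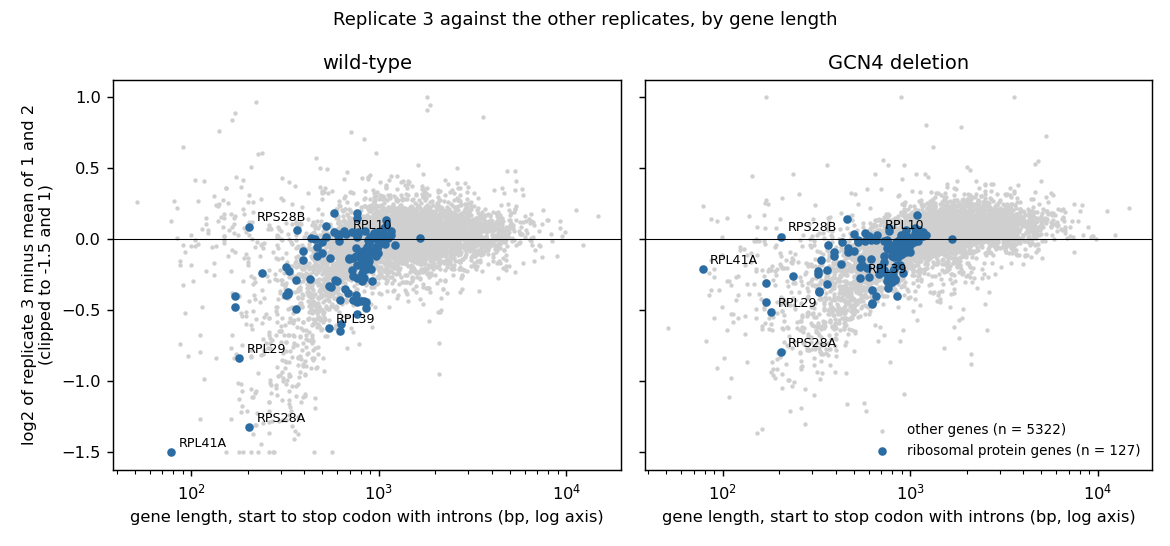
Replicate 3 minus the mean of replicates 1 and 2, in log2 units, against gene length in bp on a log axis, for wild-type and deletion arrays, with ribosomal protein genes drawn over all other genes and values clipped to the axis limits. Most short genes lie below 0 in both strains, with members of up to 400 bp at medians of -0.37 and -0.24.

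Replicate numbers also paired the arrays of the 2 strains, less clearly for number 2 among the members, as set out with the processing. Calls of members, pairs and list genes that change in a fit blocked on replicate number, or without the arrays numbered 3, are given both ways. The removal of the arrays numbered 3 was chosen after seeing the data. In 7 genes with 3′ and 5′ control probe sets, the 3′ minus 5′ signal was higher on average in the deletion strain in 7 of 7, by 0.03 to 0.28 log2 units, and the groups did not overlap in 4. Its part in the results was not tested. Signals are relative to the other probe sets of an array, so ribosomal protein mRNA per cell, and total RNA per cell, were not measured.

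No ribosomal protein gene passed the test between the strains. Of 127 members, 0 were higher and 0 lower at an adjusted p under 0.05 by limma, beside 1756 of all 5449 genes called, which is 32.2%. Without adjustment 2 members, RPS9A and RPS28B, had p under 0.05, against 2340 of all genes, or 42.9%. The median log2 change of the members was 0.01, with the middle of the distribution from -0.02 to 0.05, beside a median of 0.09 for all genes. There were 75 members above 0 and 52 below. Changes lay within 0.1 log2 units of 0 in 111 members (87.4%) and in 1882 of all genes (34.5%). This window is centred on 0 and not on the median of all genes, so the counts depend on the scaling. The median of the members was -0.095 with array medians centred, 0.01 with quantile and 0.02 with cyclic loess normalization. The median of all genes in these settings was -0.016, -0.021 and 0.009. The members thus lay below all genes with centring and above them with quantile and cyclic loess normalization. The 95% interval of the change lay within 0.5 log2 units, a 1.41-fold change either way, for 116 members, and within 0.25, or 1.19-fold, for 82. For the members not among the 116 the interval reached beyond 0.5.

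The median level of the members was also close between the strains. It was 14.13, 14.16 and 14.05 log2 units in wild-type and 14.16, 14.16 and 14.06 in the deletion strain. The groups overlapped, and replicate 3 was the lowest of each. The members together took 11.4, 11.3 and 10.7% of the summed intensity of all genes in wild-type and 11.1, 11.0 and 10.4% in the deletion strain. The means were 11.2% ± 0.398 and 10.8% ± 0.408 (SD, n = 3), and an exact two-sided permutation test gave p = 0.4, where 0.1 is the smallest p that 3 against 3 allows. Within replicate numbers, a comparison added after seeing the data, the share was lower in the deletion strain in 3 of 3, with differences of -0.327, -0.355 and -0.354 percentage points. The exact paired permutation test gave p = 0.25, the smallest that 3 pairs allow. A share also depends on the sum over all genes. The summed intensity of the members themselves had a mean of 2.23e+06 in wild-type and 2.25e+06 in the deletion strain. It was higher in the deletion strain for replicate numbers 1 and 3, and slightly lower for number 2.

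**Figure D2:**
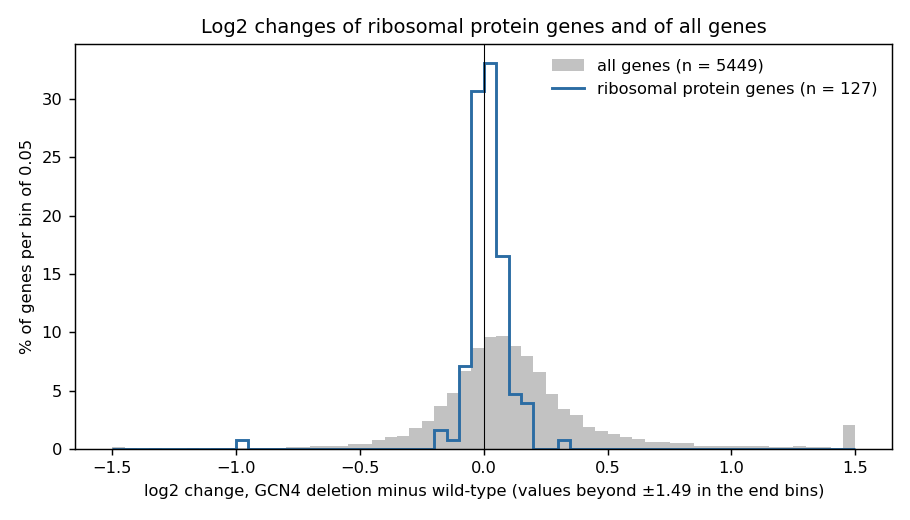
Distribution of the log2 change, deletion minus wild-type, for the 127 ribosomal protein genes and all 5449 genes tested. On the deposited scale the members are packed around 0, with 111 of 127 within 0.1 log2 units, against 34.5% of all genes.

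The members have some of the brightest probe sets on the arrays, so they were also set beside other bright genes. A probe set's brightness is not an abundance, but it bears on how precisely a change is read. Of the members, 121 (95.3%) had a mean signal in the top 10% of genes, and 121 had a mean of at least 13 log2 units. Of these 121, none passed the test. Among the 461 other genes with a mean of at least 13, 60 passed as higher and 56 as lower, and their median change was 0.002. Changes lay within 0.1 in 226 of them (49.0%). The sets are not equal in signal, since the median level of the 121 members was 14.15 and that of the 461 other genes 13.53. The median SD between replicates was 0.070 log2 units in wild-type and 0.065 in the deletion strain for the 121 members, and 0.052 and 0.061 for the 461 others. It was 0.085 and 0.081 for all genes. Whether signal near the top of the scale bears on the count was not tested.

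Groups that do not overlap were also few. In 5 members, RPL2A, RPL6B, RPL18B, RPL19A and RPS28B, all 3 deletion arrays were above all 3 wild-type arrays, and in 3, RPL8A, RPS0B and RPS9A, all were below. Of all genes, 34.9% were separated upwards and 12.6% downwards. RPL18B and RPL2A were read on probe sets with a suffix for possible shared matches, with changes of 0.02 and 0.06. Their unused probe sets without the suffix had changes of -0.15 and -0.03, with overlapping groups. The unused probe set of RPL8A kept the sign, at -0.02, and its groups overlapped too.

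Blocked on replicate number, limma called 5 members, beside 47.6% of all genes. RPL37B (adjusted p = 0.0192), RPS28B (0.0349) and RPS29A (0.0385) were higher, beside 35.3% of all genes. RPS14B (0.0179) and RPL41A (0.0413) were lower, beside 12.2% of all genes. Each share of the members is below that of the whole table. Other settings called 1 or 2 members. Array centring called RPS0B and RPS9A, both lower (27.2% of all genes), and quantile normalization RPL41A and RPS9A, both lower (28.7%). Trend and robust settings called RPS28B (32.7%), and array weights RPL41A and RPS28B (40%).

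**Figure D3:**
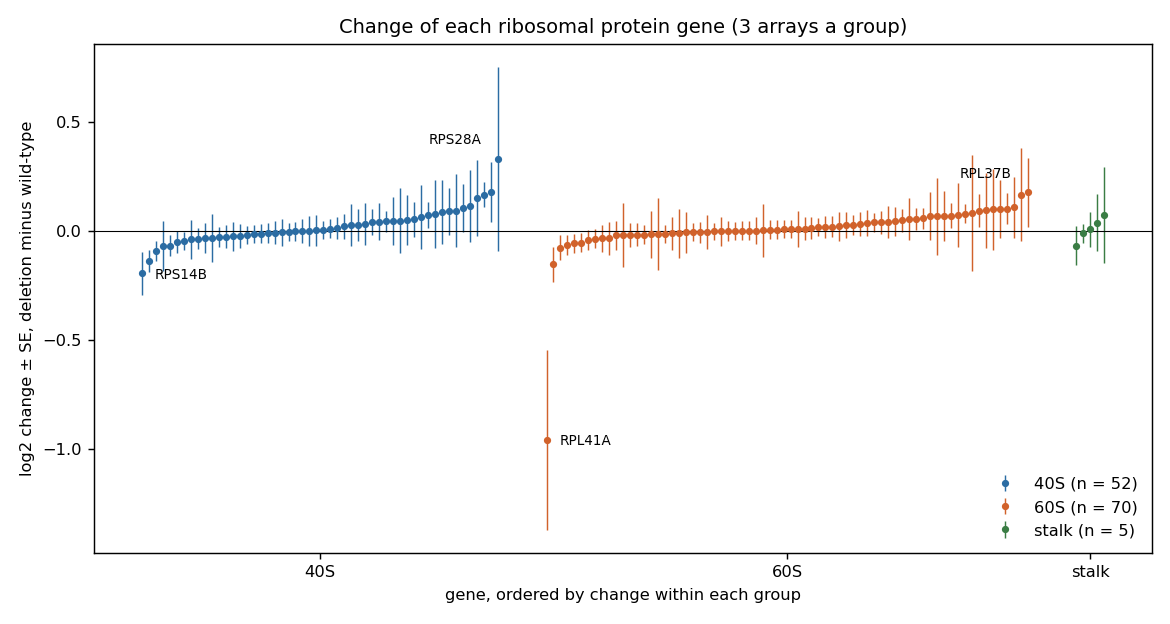
Log2 change ± SE of each of the 127 members, ordered within the 40S subunit (52 genes), the 60S subunit (70) and the stalk (5), from 3 arrays a group. Nearly all points lie close to 0, and RPL41A stands far below with a wide error.

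The 40S genes had a median change of 0.005, with 28 above 0 and 24 below, from -0.19 to 0.33. None of the 52 passed the test. RPS14B (YJL191W) is a copy of the gene for uS11, a protein of the platform, and surplus Rps14 protein blocks the splicing of its messenger. Its levels were 12.91, 12.86 and 12.71 log2 units in wild-type and 12.76, 12.69 and 12.44 in the deletion strain. The groups overlap, since the lowest wild-type array, replicate 3, lies below the first deletion array. Its change was -0.19 (SE 0.10, 95% interval -0.43 to 0.05, adjusted p = 0.189), the lowest of the 40S genes. The block moved the adjusted p to 0.0179, as given above.

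RPS9A (YPL081W) codes for uS4, an early-binding protein of the 40S body. Its levels were 13.02, 12.96 and 13.09 in wild-type and 12.87, 12.91 and 12.88 in the deletion strain. All deletion arrays lay below all wild-type arrays. The change of -0.14 (SE 0.05) had an adjusted p of 0.0919 and did not pass. Its copy RPS9B (YBR189W) read 14.16, 14.18 and 14.20 against 14.19, 14.16 and 14.16, with a change of -0.01 (adjusted p = 0.871).

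RPS28A and RPS28B code for eS28, and the RPS28B messenger is known to be shortened in life by its own protein through the decapping factor Edc3. RPS28B (YLR264W) had levels of 13.26, 13.27 and 13.35 in wild-type and 13.38, 13.52 and 13.47 in the deletion strain. The groups did not overlap, and the change of 0.17 (SE 0.06) had an adjusted p of 0.0697. RPS28A (YOR167C) had 13.29, 13.22 and 11.93 against 13.60, 13.22 and 12.62. Here replicate 3 was far below the others in both strains, and the change of 0.33 (SE 0.42, 95% interval -0.69 to 1.35, adjusted p = 0.602) is not resolved. Without the arrays numbered 3 it was 0.16.

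Other 40S genes named by the rules given with the processing did not pass either. RPS21B, whose product sits beside Rps0, had 14.31, 14.34 and 13.90 against 14.50, 14.38 and 14.21, a change of 0.18 (adjusted p = 0.379). RPS29A (YLR388W), for a small zinc-binding protein of the 40S head, had 13.70, 13.56 and 13.24 against 13.93, 13.67 and 13.36. Its change was 0.15 (adjusted p = 0.561), and within each replicate number the deletion array was the higher. The probe set used for RPS29A has a suffix for possible shared matches. Its unused probe set without the suffix had 13.47, 13.28 and 12.88 against 13.73, 13.32 and 12.90, a change of 0.11. There the strains were close in replicates 2 and 3. RPS0B, for a protein that 18S rRNA maturation needs, had 14.29, 14.27 and 14.29 against 14.16, 14.18 and 14.24. Its groups did not overlap, and the change of -0.09 had an adjusted p of 0.18. RPS6B codes for the 40S protein that is phosphorylated downstream of TOR, and it had a log2 change of -0.03 (adjusted p = 0.757). Its probe set has a suffix for possible shared matches, so the signal may include the copy.

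The 60S genes had a median change of 0.01, with 44 above 0 and 26 below, from -0.96 to 0.18, and none of the 70 passed. RPL41A (YDL184C) codes for a very short basic peptide of the 60S subunit and is the shortest member, at 78 bp. It was the dimmest member, with levels of 7.68, 7.82 and 6.23 in wild-type and 6.44, 6.27 and 6.15 in the deletion strain. Replicates 1 and 2 of wild-type stood above the rest, and replicate 3 of wild-type was below the background level of its array. The deletion values were close to the background levels of their arrays, which were 6.36, 6.12 and 6.08. The change was -0.96 (SE 0.41, adjusted p = 0.129). It was -1.46 without wild-type replicate 3 (adjusted p = 0.000565) and -1.39 without both arrays numbered 3 (adjusted p = 0.00224). It was -0.74 without wild-type replicate 1 (adjusted p = 0.313) and -0.67 without wild-type replicate 2 (adjusted p = 0.297). The probe set has a suffix that marks a possible match to more than 1 gene, and RPL41B was not analysed here, so the copy it reads is uncertain.

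RPL37A and RPL37B, for a zinc-binding 60S protein, had like values. RPL37B (YDR500C) had 13.81, 13.68 and 13.39 against 14.04, 13.84 and 13.54, a change of 0.18 (SE 0.16, adjusted p = 0.441). RPL37A had 13.85, 13.74 and 13.20 against 14.06, 13.77 and 13.46, a change of 0.17 (adjusted p = 0.606). In both genes the fall at replicate 3 was larger than the difference between the strains. RPL9B (YNL067W) had 13.40, 13.48 and 13.62 against 13.24, 13.43 and 13.38, a change of -0.15 (adjusted p = 0.203). RPL11A, whose product joins Rpl5 on the 5S rRNA, had 13.81, 13.90 and 13.95 against 13.76, 13.86 and 13.81, a change of -0.08 (adjusted p = 0.365).

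Among the members with the highest signal, RPL2A, for a protein near the peptidyl transferase centre, had 14.80 ± 0.005 log2 units in wild-type and 14.86 ± 0.07 in the deletion strain (SD, n = 3, adjusted p = 0.459). RPS4B had a log2 change of -0.00 (adjusted p = 0.988). The probe sets of RPL2A and RPS4B have a suffix for possible shared matches, so their signal may include the copy. RPL10, whose product joins the 60S subunit last and is needed for subunit joining, had a log2 change of 0.01 (adjusted p = 0.940). After RPL41A the dimmest member was RPL15B, with 11.91, 12.01 and 11.99 against 12.05, 11.98 and 11.88 and a change of 0.00 (adjusted p = 0.977). RPL30, whose protein binds its own transcript and blocks its splicing, had a log2 change of 0.02 (adjusted p = 0.833).

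The stalk is the flexible arm of the 60S subunit that recruits elongation factors, with P0 as the base and P1 and P2 dimers on it. The median change of its 5 genes was 0.008. RPP0 (YLR340W) had 14.62, 14.62 and 14.65 in wild-type and 14.64, 14.59 and 14.62 in the deletion strain, a change of -0.01 (adjusted p = 0.900). RPP1B had 14.02, 13.94 and 13.34 against 14.10, 13.89 and 13.54, with both replicates 3 low and a change of 0.07 (adjusted p = 0.834). RPP1A, RPP2A and RPP2B had log2 changes of 0.04, -0.07 and 0.01, with adjusted p of 0.856, 0.632 and 0.954.

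Some ribosomal proteins are made as fusions to ubiquitin and so are also a source of it. RPS31 (YLR167W) had 14.57, 14.60 and 14.58 against 14.56, 14.65 and 14.75, a change of 0.07 (adjusted p = 0.410). RPL40A and RPL40B code for the same fusion protein. They had log2 changes of -0.00 and 0.01, with adjusted p of 0.992 and 0.866.

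Members with and without a duplicate had like medians. The 109 members with a paralog gene had a median change of 0.008, and the 18 without had 0.01. The latter ranged from -0.02 to 0.10, and 0 of them passed the test. A further check was the probe set used, because copies are nearly identical in sequence and some probe sets cannot tell them apart. The 102 members on probe sets without a suffix for shared matches had a median of 0.01 and the 25 on probe sets with one had 0.002. Of the 20 members with more than 1 probe set, used and unused probe sets differed in their change by a median of 0.04 and at most by 0.17.

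Next, the balance between the copies of a pair was compared between strains. For 50 pairs both copies were measured, 35 of them on probe sets without the suffix on either side. Pairs were formed by symbol, so they include RPP1 and RPP2, whose A and B proteins differ more than those of most pairs. The log2 level of A minus that of B was taken within each array, which cancels any factor common to the array. The level of this difference depends on the brightness of different probes and is not a ratio of transcripts, so only its change from strain to strain is read. Of the 50 pairs, 1 passed the test, adjusted together with all genes over 5499 values of which 32% were called. The median change over pairs was -0.01, with 22 above 0 and 28 below, and 39 pairs lay within 0.1. The groups did not overlap in 12 pairs, 6 in each direction, beside 34.9% of single genes separated upwards and 12.6% downwards. The 95% interval lay within 0.25 log2 units for 39 pairs and within 0.5 for 49.

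**Figure D4:**
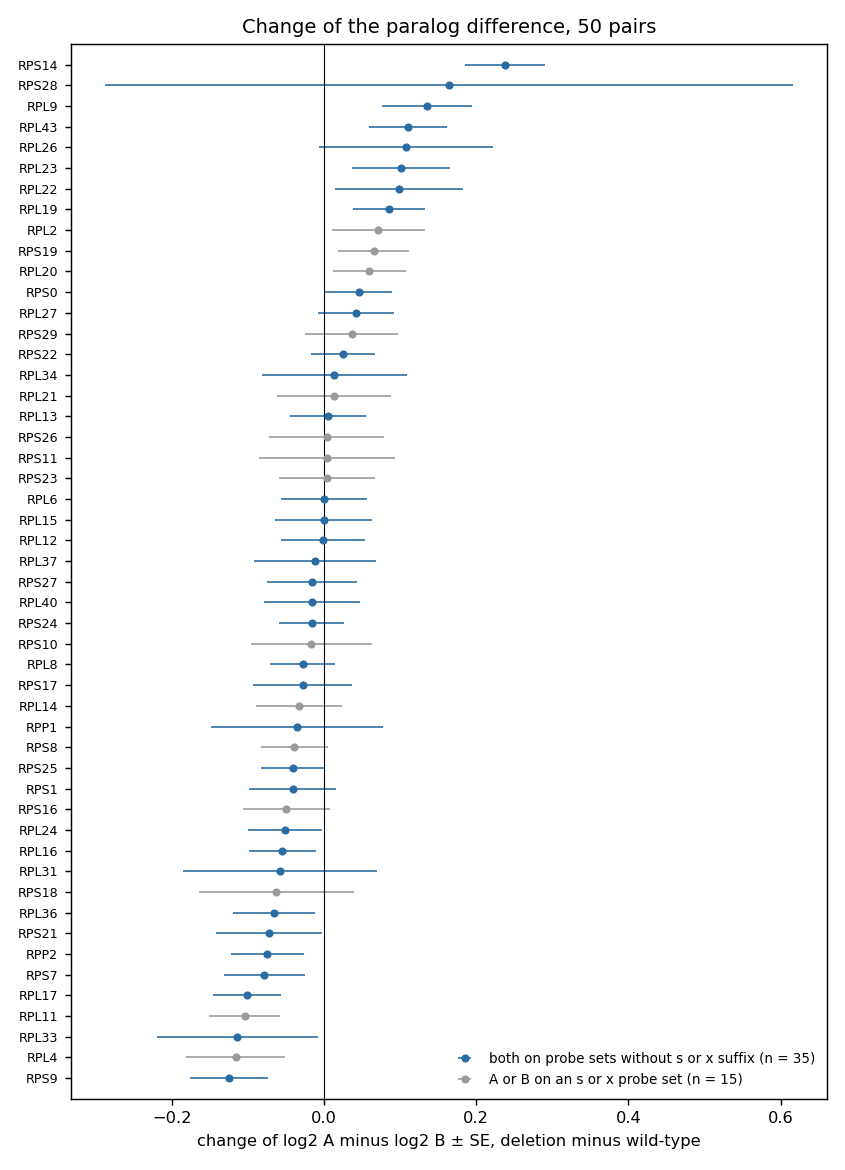
Change of the within-array difference A minus B, deletion minus wild-type, in log2 units ± SE for each of the 50 pairs, in order of size. RPS14 is the pair that passed the test, and RPS28 has the widest error.

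The pair that passed was RPS14. RPS14A (YCR031C) had 14.28, 14.26 and 14.05 in wild-type and 14.32, 14.27 and 14.13 in the deletion strain, a change of 0.04 (SE 0.08, adjusted p = 0.734). RPS14B values are given above. A minus B was 1.37, 1.40 and 1.35 in wild-type and 1.56, 1.58 and 1.69 in the deletion strain. All deletion arrays lay above all wild-type arrays. Replicate 3 stood with the others of its group in wild-type, and in the deletion strain it had the widest difference, 1.69. The mean was 1.37 ± 0.03 in wild-type and 1.61 ± 0.07 in the deletion strain (SD, n = 3), a change of 0.24 (SE 0.05, 95% interval 0.11 to 0.36, limma adjusted p = 0.0168, unadjusted p = 0.00363). So RPS14B was lower against RPS14A in the strain without GCN4, while neither gene passed on its own in the fit without the block. In the blocked limma fit RPS14B was called by itself (adjusted p = 0.0179). The call of the pair was kept in 14 of 17 alternative settings, with changes from 0.19 to 0.33. It was lost without wild-type replicate 1 (adjusted p = 0.0595), without wild-type replicate 3 (0.0504) and without both arrays numbered 3 (0.0619, change 0.19).

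**Figure D5:**
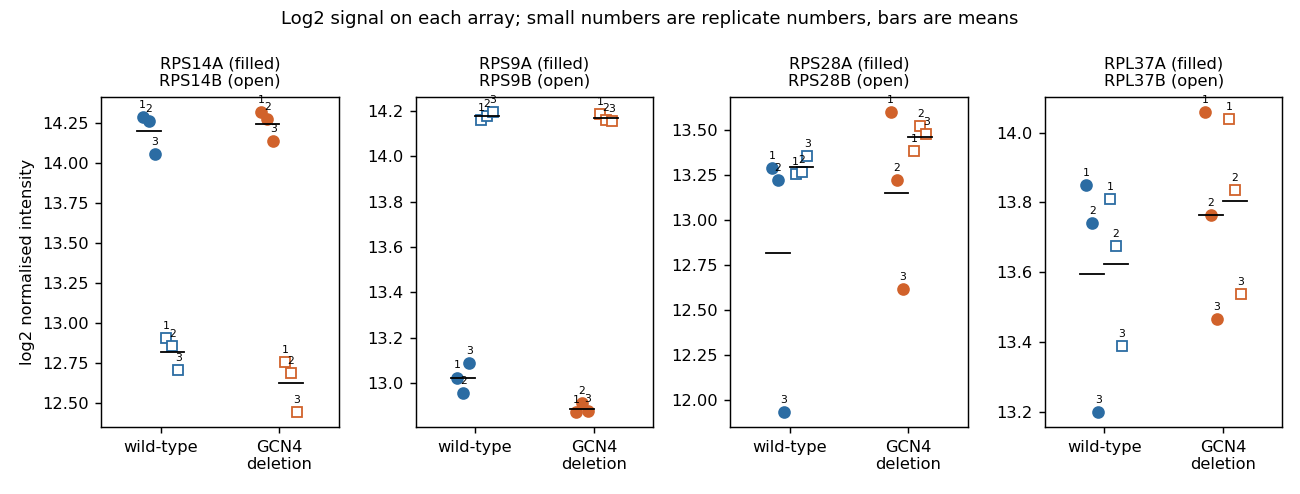
Log2 level of both copies on each of the 6 arrays for selected pairs, with a y axis of its own in each panel that does not start at 0. In RPS14 the distance between the copies is wider on the 3 deletion arrays, and in RPS28 the A copy drops on both arrays numbered 3.

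The other pairs with the largest changes did not pass. In RPS9, A minus B was -1.14, -1.22 and -1.11 in wild-type and -1.32, -1.25 and -1.28 in the deletion strain, with no overlap and a change of -0.12 (SE 0.05, adjusted p = 0.113). In RPL9 it was 0.58, 0.53 and 0.42 against 0.70, 0.63 and 0.61, also with no overlap, and the change of 0.14 (SE 0.06, adjusted p = 0.133) passed in the blocked fit (adjusted p = 0.0445). RPL9A itself had a log2 change of -0.02. The RPS14 call held with the block as well (adjusted p = 0.0148).

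In RPL4, whose protein reaches into the exit tunnel, A minus B was 1.29, 1.28 and 1.17 against 1.16, 1.20 and 1.03, a change of -0.12 (adjusted p = 0.229). In RPL17 it was 0.44, 0.42 and 0.44 against 0.31, 0.31 and 0.37, a change of -0.10 (adjusted p = 0.135). The RPL17 groups did not overlap and the RPL4 groups did. In RPL43 it was 0.19, 0.10 and 0.10 against 0.29, 0.24 and 0.20, a change of 0.11 (adjusted p = 0.154), and again the groups did not overlap. In RPL11 it was -0.59, -0.55 and -0.50 against -0.66, -0.65 and -0.64, a change of -0.10 (adjusted p = 0.142). With probe sets without the suffix preferred, an alternative chosen after seeing the data, that change was -0.20. RPL4A and RPL11B were read on probe sets with the suffix, so the signal of each may include the other copy.

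RPL33, RPL26, RPL23 and RPS7 had changes of A minus B of -0.11, 0.11, 0.10 and -0.08, with adjusted p of 0.464, 0.527, 0.285 and 0.319. RPS28 had the least precise balance, with A minus B of 0.03, -0.05 and -1.42 in wild-type and 0.22, -0.30 and -0.86 in the deletion strain. The drop of RPS28A at replicate 3 sets these values, and the change of 0.16 (SE 0.45, 95% interval -0.93 to 1.26, adjusted p = 0.822) became -0.03 without the arrays numbered 3.

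Genes around the ribosomal proteins were taken from lists written from textbook knowledge, by function. The lists, too, were chosen with earlier results of these data known. Several genes passed the test on a list of regulators of ribosomal protein and ribosome synthesis genes, which holds activators and repressors together. Of 13 measured, 5 were lower and 1 higher, beside 7.67% of all genes called lower and 24.6% called higher, and their median log2 change was -0.13. SCH9, a kinase downstream of TOR, had 12.17, 12.02 and 11.84 in wild-type and 11.56, 11.40 and 11.66 in the deletion strain, 1.39-fold lower (adjusted p = 0.0163). REB1, a general promoter-binding factor, had 10.77, 10.82 and 10.74 against 10.28, 10.32 and 10.53, 1.32-fold lower (adjusted p = 0.00942). Neither gene had overlapping groups.

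FHL1, the forkhead protein of ribosomal protein promoters, had 10.15, 10.08 and 9.98 in wild-type and 9.71, 9.68 and 9.66 in the deletion strain, 1.30-fold lower (adjusted p = 0.00386). Its coactivator IFH1 had 11.11, 11.07 and 11.00 against 10.83, 10.92 and 10.82, 1.15-fold lower (adjusted p = 0.0316). TBF1, which binds the promoters of some ribosomal protein genes, was 1.19-fold lower (adjusted p = 0.0181). FHL1, IFH1 and TBF1 were named after their values were seen. CRF1, a corepressor that competes with Ifh1 for Fhl1, had 6.98, 7.12 and 7.17 in the deletion strain and lay below the background level on all wild-type arrays, with measured values of 6.01, 5.99 and 6.28. It was at least 1.55-fold higher in the deletion strain (adjusted p = 0.000681).

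RAP1, SFP1 and HMO1, which also act at these promoters, had log2 changes of -0.13, -0.10 and -0.02 without passing (adjusted p = 0.181, 0.364 and 0.871). ABF1, another general promoter-binding factor, had a log2 change of -0.22 (adjusted p = 0.0620), with groups that did not overlap. Blocked on replicate number, RAP1 (adjusted p = 0.0464) and ABF1 (0.0217) were called lower, which made 7 lower and 1 higher of the 13. STB3, DOT6 and TOD6 passed in neither fit. Their log2 changes were 0.19, 0.14 and -0.03 (limma adjusted p = 0.184, 0.122 and 0.909 without the block). The groups of DOT6 did not overlap, with the deletion strain higher. The calls of FHL1 and REB1 were kept in 17 of 17 alternatives. SCH9 lost its call without deletion replicate 2 (adjusted p = 0.0524) and CRF1 with quantile normalization (0.0577). TBF1 lost it in 4 settings and IFH1 in 5, each of which left out arrays, with adjusted p up to 0.0675 and 0.111. Without both arrays numbered 3 their adjusted p were 0.0615 and 0.0668.

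Among elongation factors HEF3 passed the test. Of 9 measured, 1 was higher and 0 lower, beside 24.6% and 7.67% of all genes. This gene, a copy of the elongation factor 3 gene YEF3, had 8.62, 8.52 and 8.65 in wild-type and 9.42, 9.31 and 9.56 in the deletion strain, 1.78-fold higher (adjusted p = 0.000566), with groups far apart. YEF3 itself had a log2 change of 0.02. Of 9 ribosome-associated proteins, 1 was lower and 0 higher, beside 7.67% and 24.6% of all genes. BTT1, for an alternative beta subunit of the nascent polypeptide-associated complex, had 9.59, 9.66 and 9.44 against 9.25, 9.13 and 8.96, 1.37-fold lower (adjusted p = 0.0132). It lost the call without wild-type replicate 1 (adjusted p = 0.0502). EGD1, for the usual beta subunit, had a log2 change of 0.11 (adjusted p = 0.506).

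Of 8 dedicated chaperones of single ribosomal proteins, 2 were higher and 0 lower, a share of higher calls close to the 24.6% of all genes. YAR1, the chaperone of Rps3, was 1.20-fold higher (12.18, 12.10 and 12.13 against 12.38, 12.41 and 12.41, adjusted p = 0.00639). ACL4, the chaperone of Rpl4, was 1.12-fold higher (adjusted p = 0.0347), and its call was kept in 7 of 17 alternatives. With array medians centred neither passed (adjusted p = 0.0820 and 0.498). Of 10 methyltransferases of ribosomal proteins, 2 were higher and 0 lower, again close to the 24.6% of all genes called higher. RKM4, which methylates Rpl42, had 10.58, 10.71 and 10.88 against 11.09, 11.25 and 11.39, 1.43-fold higher (adjusted p = 0.0128). RKM5, which methylates Rpl1, was 1.14-fold higher (adjusted p = 0.0200) and kept its call in 10 of 17. Without both arrays numbered 3, ACL4 (adjusted p = 0.104) and RKM5 (0.0800) were not called. Blocked on replicate number, RKM2, which methylates Rpl12, was called higher too (log2 change 0.18, adjusted p = 0.0159, against 0.113 without the block), making 3 higher. ABF1 and RKM2 were also named after their values were seen.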

How the data were processed

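Arrays with 10928 probe sets for S. cerevisiae and another yeast were hybridised with RNA of 3 wild-type and 3 deletion samples. The values deposited by the authors are linear intensities, from 9.03 to 35044, already normalised. The submitters' processing notes name R 2.8.0, affy and RMA. The design assumed log2 values, so log2 of the deposited intensities was taken here, with no pseudocount. The sources used here do not say whether more arrays were normalised together. Groups and replicate numbers came from sample titles.

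The platform annotation named the probe sets, and the RefSeq table of R64 gave symbols and lengths. Where a gene had several probe sets (47 genes), the brightest on average was taken. The 95th percentile of other-species probe sets set each array's background level, 6.08 to 6.61 log2 units. Changes are deletion minus wild-type, tested two-sided in R 4.3.3 with limma 3.58.1 without covariates, and p-values were adjusted over all 5449 genes by Benjamini-Hochberg, at 0.05. Pair differences were fitted and adjusted together with the genes. The fit was tested on simulated data with noise drawn independently for each array. That simulation held no deviation shared by same-numbered arrays, so it does not cover this feature of the data. Permutation tests used scipy 1.17.1 and figures matplotlib 3.10.9.

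Same-numbered arrays of both strains deviated together from their group means, with r of 0.690, 0.531 and 0.711 over all genes and 0.894, 0.398 and 0.834 over the members. Arrays of different number had r from -0.64 to -0.17 over all genes, except wild-type 2 with deletion 1 (0.226). Over the members they had r from -0.83 to -0.02, again except wild-type 2 with deletion 1 (0.584). Among the members, wild-type 2 thus went more closely with deletion 1 than with deletion 2 (0.398). The labels do not say what a number marks, and the pairing rests on these values.

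The members and lists were chosen with earlier results of these data known. Named were members and pairs that passed with or without the block or had an unadjusted p under 0.05, the 6 members and 6 pairs with the largest changes each way, the stalk and ubiquitin fusion genes, RPL30, RPS6B, the 3 brightest and 3 dimmest members, and up to 3 called genes of each list. Alternatives were array centring, quantile and cyclic loess normalization, a pseudocount of 16, a filter on dim genes, trend and robust settings, array weights, other probe set choices, the block, and leaving out arrays. Promoter and protein sequences were not used here.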

Additional observations from a re-analysis of the deposited data

Results flagged for a closer look

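Ribosomal RNA control probe sets on the arrays were outside the comparisons above. Of 8 for the 18S rRNA of the small subunit, 3 were higher on all deletion arrays than on all wild-type arrays, by 0.12, 0.18 and 0.16 log2 units. Of all genes, 34.9% were separated upwards in this way, so the share of these probe sets is close to that of the whole table. The first had 13.91, 13.82 and 13.94 in wild-type and 14.04, 13.99 and 14.02 in the deletion strain. The second had 14.14, 14.09 and 14.17 against 14.34, 14.27 and 14.34. The third, which reads the 3′ end, had 14.17, 14.13 and 14.20 against 14.34, 14.28 and 14.35. The other 5 overlapped between the strains, and the 8 ranged from -0.11 to 0.18. No test was run on them.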

How the results depend on the processing

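GCN4 was called in 17 of 17 alternatives. The count of 0 members called became 2 with array medians centred (RPS0B and RPS9A, lower), 2 with quantile normalization (RPL41A and RPS9A, lower), 1 with trend and robust settings (RPS28B), 2 with array weights, 5 with the replicate block and 1 without both arrays numbered 3 (RPL41A). Leaving out each array in turn gave 0 to 1, the 1 being RPL41A without wild-type replicate 3. The median change of the members was -0.095 with array medians centred, where the median of all genes was -0.02, and -0.022 to 0.036 with each array left out. It was 0.01 with quantile and 0.02 with cyclic loess normalization, where the medians of all genes were -0.021 and 0.009. Pairs called were 2 with quantile normalization (RPS14 and RPS9), 2 with the replicate block (RPS14 and RPL9), 0 without both arrays numbered 3, and 0 to 1 with each array left out, 0 without wild-type replicate 1 or 3. The exact permutation test called 0 pairs, since it cannot go below 0.1. Of 850 comparisons of a named gene or pair under an alternative, 801 kept their side of the threshold, 16 passed it and 33 no longer did. Among those not called, 57 changed sign, and no called value did. The causes of these shifts were not tested. The number of arrays limits the precision.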

Other observations

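The control probe sets for the 25S rRNA of the large subunit differed more than those for 18S. Of 8, 4 were lower on all deletion arrays than on all wild-type arrays, beside 12.6% of all genes, and the 8 ranged from -1.15 to 0.03 log2 units. The probe set for the middle of 25S had 13.16, 13.08 and 13.16 in wild-type and 12.36, 11.76 and 12.00 in the deletion strain, a difference of -1.09. The probe set for its 3′ end had 14.69, 14.62 and 14.64 against 14.68, 14.66 and 14.71, a difference of 0.03, so probe sets along the same RNA did not move together. The 5.8S rRNA probe set differed by -0.64, with overlapping groups.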
